A study of Mus musculus with 12 samples.

Results

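The calpain system of the muscle fiber was followed through 5 genes, which were chosen by name, with earlier results of these data known. These were Capn1, Capn2 and Capn3, which encode catalytic subunits, Capns1, which encodes the regulatory subunit, and Cast, which encodes the inhibitor calpastatin. They were 5 of the 55367 distinct gene symbols in the data and 5 of the 14429 genes tested, and none was lost to the filter on low values. RNA-seq values came from 12 samples of single myofibers of the extensor digitorum longus (EDL), a fast hindlimb muscle, of C57BL/6J mice. Of these, 4 samples were from young mice aged 3 to 4 months, and 4 of Fluo-4 normal and 4 of Fluo-4 abnormal fibers were from aged mice of 26 to 28 months. No genetic change or treatment was named for any group. Fluo-4 is a dye whose fluorescence rises with calcium, and aged fibers with aberrant, brighter staining, which the study describes in male mice, were separated under a fluorescence stereomicroscope from those with normal staining. The study associates the bright staining with the sarcoplasmic reticulum. In the normal regions of abnormal fibers it found no Fluo-4 difference from aged normal fibers, and after caffeine it found a weaker rise in abnormal fibers. The fibers were freed from the muscle with collagenase, and the number of fibers and animals behind each sample is not given in the sources used here. P-values therefore measure the spread between these samples, part of which may be technical.

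Calpains are cysteine proteases that cut their targets at few sites when calcium rises. Mu-calpain and m-calpain each pair a catalytic subunit, encoded by Capn1 or Capn2, with the small subunit encoded by Capns1, and both are blocked by calpastatin, which binds them in the presence of calcium. Capn3 encodes the muscle-specific calpain, which is held on titin in the sarcomere, is not blocked by calpastatin, and is lost in a recessive limb-girdle muscular dystrophy.

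In the GENCODE annotation of GRCm39, Capn1 lay at chr19:6038566-6066148 on the minus strand, Capn2 at chr1:182294819-182345339 on the minus strand and Capn3 at chr2:120294048-120338450 on the plus strand. Capns1 lay at chr7:29886361-29898304 and Cast at chr13:74840486-74957023, both on the minus strand. RefSeq listed 10 transcription starts for these genes, 4 of them for Cast, 2 each for Capn1 and Capn3, and 1 each for Capn2 and Capns1. The sequences upstream of starts of Capn3, Capns1 and Cast are shown because these are the genes that passed the test in a comparison. Each line runs 5′ to 3′ on the gene's strand and was cut from the 250 bases before a RefSeq start (from a table built on GRCm38.p6 and matched exactly to GRCm39), without the bases that GENCODE assigns to an exon. Capitals mark an E-box (CANNTG), a TATA box (TATAAA), a GC box (GGGCGG) or a MEF2 motif on either strand.
Capn3, first start (chr2:120293824-120294047, GRCm39, plus strand): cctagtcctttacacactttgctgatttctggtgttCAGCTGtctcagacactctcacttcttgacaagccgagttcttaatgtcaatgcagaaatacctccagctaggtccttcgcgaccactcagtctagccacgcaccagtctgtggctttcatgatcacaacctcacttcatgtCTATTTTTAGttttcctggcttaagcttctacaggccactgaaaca
Capn3, second start (chr2:120307140-120307389, GRCm39, plus strand): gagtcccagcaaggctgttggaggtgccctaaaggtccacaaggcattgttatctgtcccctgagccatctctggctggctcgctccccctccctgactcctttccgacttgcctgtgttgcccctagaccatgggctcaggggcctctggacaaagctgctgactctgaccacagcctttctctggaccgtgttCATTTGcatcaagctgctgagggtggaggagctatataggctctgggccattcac
Capns1 (chr7:29894651-29894828, GRCm39, minus strand): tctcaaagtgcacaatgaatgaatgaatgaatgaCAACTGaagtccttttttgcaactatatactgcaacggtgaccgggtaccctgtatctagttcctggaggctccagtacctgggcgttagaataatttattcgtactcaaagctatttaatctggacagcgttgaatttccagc
Cast, first start (chr13:74957024-74957129, GRCm39, minus strand): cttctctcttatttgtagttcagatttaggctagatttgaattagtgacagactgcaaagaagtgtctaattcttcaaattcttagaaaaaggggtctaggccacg
Cast, second start (chr13:74956120-74956329, GRCm39, minus strand): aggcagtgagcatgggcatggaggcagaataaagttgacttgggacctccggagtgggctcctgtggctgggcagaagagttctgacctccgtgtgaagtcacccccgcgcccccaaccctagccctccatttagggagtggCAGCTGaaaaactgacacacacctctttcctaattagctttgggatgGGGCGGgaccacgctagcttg
Of the 10 full windows of 250 bases, 1 held a MEF2 motif, that before the first start of Capn3, and MEF2 motifs were in 2.92% of the 32851 RefSeq windows of that length. MEF2 factors are muscle transcription factors, and E-boxes are bound by factors of the MyoD family. E-boxes were in 6 of the 10 windows and in 66.2% of all, GC boxes in 3 of the 10 and in 32.7% of all, and TATA boxes in 0 of the 10 and in 12.4% of all. These matches describe letters and not sites in use.

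Each transcript is given in TPM, a share of all transcripts in the sample scaled by transcript length, so levels of different genes can be set side by side. The smallest of the 5 was Capn1 and the next was Capn2, in 12 of 12 samples each. Capns1 was the highest in 11 of 12 samples and Cast in 1, Fluo-4 normal replicate 3. Capn3 was above Cast in 3 of 4 young samples, in 0 of 4 Fluo-4 normal samples and in 0 of 4 Fluo-4 abnormal samples. In RNA taken from fibers together, fewer expressing fibers and less RNA per fiber cannot be told apart.

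**Figure D1:**
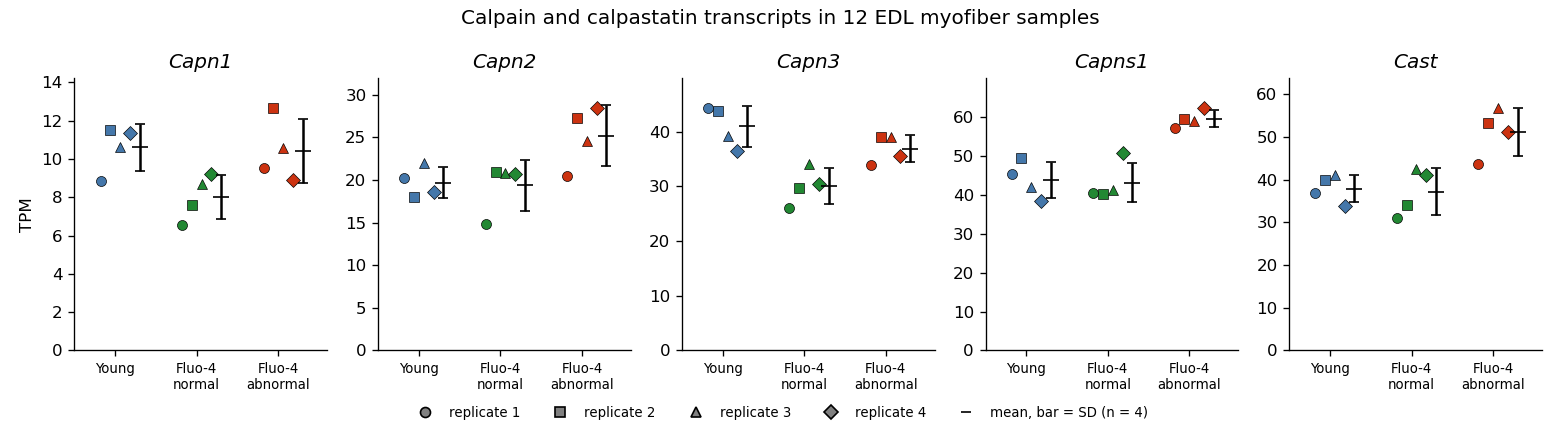
TPM of Capn1, Capn2, Capn3, Capns1 and Cast (y axis, from 0) in young, Fluo-4 normal and Fluo-4 abnormal myofiber samples (x axis). Points are samples, marked by replicate number, and the bars beside them are the mean and SD of 4. As deposited, the 4 Fluo-4 abnormal samples lie above every other sample for Capns1 (from 57.2 TPM) and Cast (from 43.5 TPM), and the Fluo-4 normal samples lie below every young sample for Capn3 (up to 34.1 TPM).

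In Fluo-4 abnormal fibers the transcripts of the regulatory subunit and of the inhibitor were each higher than in Fluo-4 normal fibers of the same age, by 38.0% for Capns1 and 37.7% for Cast on group means. Both were also higher than in young fibers. With TMM-type factors, which set the centre of the genes level between samples, neither gene passed the test in either comparison (adjusted p 0.104 to 0.184, limma). The catalytic subunits Capn1, Capn2 and Capn3 had means 30.04%, 30.07% and 22.9% above those of Fluo-4 normal fibers, but none of the 3 passed the test, which left out the pairing by replicate number. With the replicate number as a block Capn2 passed (adjusted p 0.0396, limma). In Fluo-4 normal fibers Capn3 was lower than in young fibers, and Capns1, Cast and Capn2 had means within 2% of the young ones. The call of Capn3 was kept in 7 of 21 alternatives of processing or of leaving out a sample.

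The question of the first comparison was what sets Fluo-4 abnormal fibers apart from normal ones of the same muscle and age. A limma fit across all 14429 genes on log2(TPM + 1), with Benjamini-Hochberg adjustment, called 2 of the 5 members at an adjusted p under 0.05, both higher. It called 9.35% of all tested genes, 7.36% higher and 1.99% lower. When only genes with a mean of at least 5 TPM in a group were fitted, it called 26.9% of them and 3 of the 5 members. All 5 members had a positive log2 change, with a median of 0.37, beside 0.10 for all tested genes and 0.20 for the 6348 genes with a mean of at least 5 TPM in a group. Changes of the called members are therefore also given relative to these medians.

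Capns1, the small subunit of both conventional calpains, stood at 40.4, 40.2, 41.1 and 50.6 TPM in Fluo-4 normal replicates 1 to 4. In Fluo-4 abnormal replicates 1 to 4 it stood at 57.2, 59.5, 58.8 and 62.4 TPM. The groups did not overlap, and Fluo-4 normal replicate 4 was the normal sample nearest to the abnormal ones. On log2(TPM + 1) the difference was 0.46 (SE 0.09, 95% interval 0.26 to 0.66), with an adjusted p of 0.00899 from limma. It was 0.36 above the median of all tested genes and 0.26 above that of genes of at least 5 TPM, of which 14.1% rose by more than Capns1 did. With TMM-type factors, which set the centre of the genes level between samples, the difference was 0.24 and the adjusted p from limma 0.177, and across all alternatives the adjusted p ran from 0.00451 to 0.177.

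Cast, the inhibitor, stood at 31.0, 34.1, 42.5 and 41.1 TPM in Fluo-4 normal replicates 1 to 4 and at 43.5, 53.2, 56.8 and 51.0 TPM in the abnormal ones. The groups did not overlap, but Fluo-4 abnormal replicate 1 was only slightly above Fluo-4 normal replicate 3. The difference was 0.46 on the log2 scale (SE 0.11, 95% interval 0.21 to 0.70), with an adjusted p of 0.0235 from limma. It was 0.35 above the median of all tested genes and 0.25 above that of genes of at least 5 TPM. The call was lost with TMM-type factors (difference 0.23, adjusted p 0.184, limma), and the adjusted p ran from 0.0115 to 0.184 across the alternatives. It was also lost without any 1 of Fluo-4 normal replicates 1 and 2 and Fluo-4 abnormal replicates 2, 3 and 4, where the adjusted p was 0.0603, 0.0705, 0.0757, 0.0702 and 0.0564 in that order.

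Capns1 and Cast, 2 of the 5 members, had every abnormal sample above every normal one, and 14% of all tested genes had groups that did not overlap in this comparison. With TPM divided by the TMM-type factors, tried after the values were seen, both pairs of groups overlapped, since Capns1 reached 52.7 in Fluo-4 normal and began at 50.7 in abnormal samples, and Cast reached 42.7 and began at 40.96.

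Capn2, the catalytic subunit of m-calpain, stood at 14.9, 21.0, 20.8 and 20.8 TPM in Fluo-4 normal replicates 1 to 4 and at 20.5, 27.2, 24.6 and 28.5 TPM in the abnormal ones. Fluo-4 abnormal replicate 1 fell within the normal range, and the other abnormal samples were above it. The log2 difference was 0.37 (SE 0.13, 95% interval 0.09 to 0.64), with an adjusted p of 0.0933 from limma. With the replicate number as a block, which pairs each abnormal sample with the normal one of the same number, the difference was the same and the adjusted p from limma was 0.0396, within a range of 0.0396 to 0.506 over the alternatives. This fit held only the 2 groups, which without the block gave an adjusted p of 0.183 from limma. Without Fluo-4 abnormal replicate 1 the adjusted p was 0.0421.

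Capn1, the catalytic subunit of mu-calpain, stood at 6.56, 7.61, 8.66 and 9.19 TPM in Fluo-4 normal replicates 1 to 4 and at 9.53, 12.7, 10.6 and 8.87 TPM in the abnormal ones. Fluo-4 abnormal replicate 4 was below the highest normal sample, so the groups overlapped. The log2 difference was 0.34 (SE 0.14, 95% interval 0.04 to 0.64), with an adjusted p of 0.138 from limma, and no alternative brought it under 0.05.

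Capn3, the titin-bound muscle calpain, stood at 25.97, 29.6, 34.1 and 30.5 TPM in Fluo-4 normal replicates 1 to 4 and at 33.98, 39.0, 39.0 and 35.6 TPM in the abnormal ones. The groups met at their edges, where the lowest abnormal sample was just below the highest normal one. The log2 difference was 0.29 (SE 0.09, 95% interval 0.09 to 0.50), with an adjusted p of 0.0699 from limma. Of the 5 members it lay nearest to the median of genes of at least 5 TPM, 0.09 above it, and with TMM-type factors its difference was 0.07. Its adjusted p was under 0.05 with the filter of 5 TPM (0.0415) and without Fluo-4 normal replicate 3 (0.0372), within a range of 0.0372 to 0.689 over the alternatives.

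**Figure D2:**
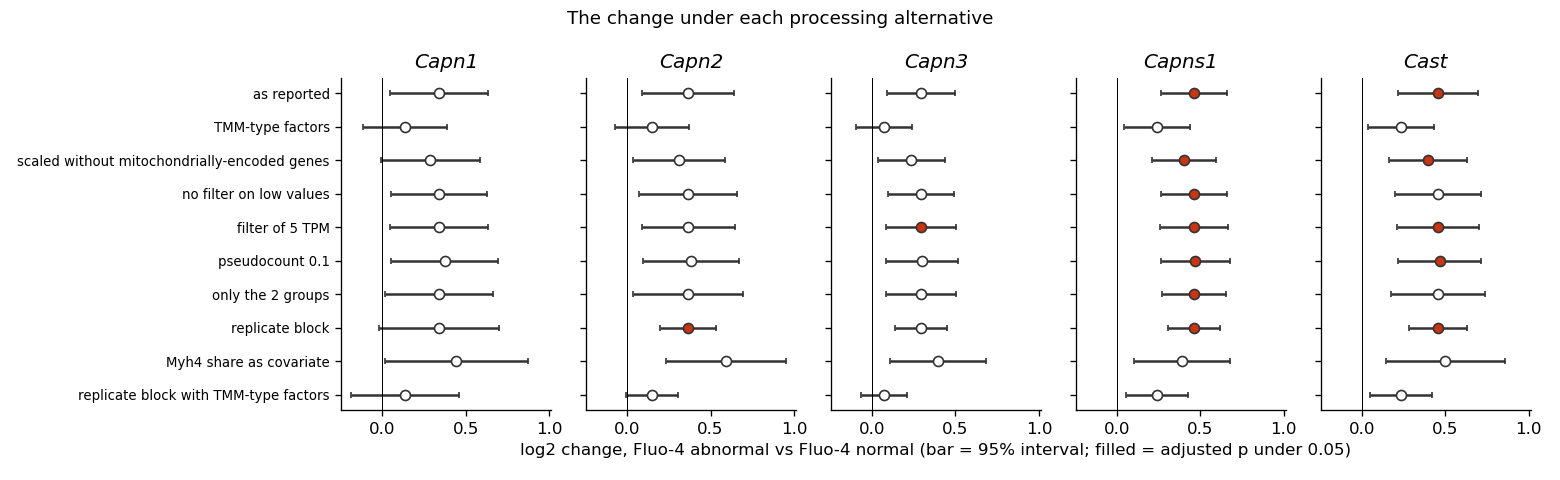
Log2 change between Fluo-4 abnormal and Fluo-4 normal fibers (x axis) for each gene under each way of processing (y axis), with the 95% interval of the limma fit. Filled points have an adjusted p under 0.05. Every point is above 0, and no point is filled with TMM-type factors, with or without the replicate block, or with the Myh4 share as covariate.

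The size of these differences moved with the scaling, and some measures of the whole library moved with the groups. Fluo-4 abnormal samples had 4.75% to 6.92% of their TPM in mitochondrially-encoded genes, against 8.75% to 10.9% in Fluo-4 normal and 7.35% to 8.01% in young samples. When the values were rescaled without these genes, Capns1 and Cast kept their calls, with log2 differences of 0.40 each. TMM-type factors ran from 1.06 to 1.17 in abnormal samples and from 0.809 to 0.998 in normal ones. Of the genes called as deposited, 1062 were higher and 287 lower, whereas with TMM-type factors 306 were higher and 542 lower. Myh4, the fast myosin heavy chain of IIb fibers, held 98.9% to 99.7% of the summed Myh1, Myh2, Myh4 and Myh7 TPM in abnormal samples and 93.7% to 99.2% in normal ones. With this share as a covariate Capns1 had an adjusted p of 0.0927 and Cast of 0.0838 from limma, with differences of 0.39 and 0.50.

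The samples held the transcripts of muscle fibers. The summed TPM of 7 myofiber markers ran from 95287 to 133414, whereas 3 adipocyte markers were at 0 throughout and 5 immune markers summed to at most 2.95 TPM. Markers of 5 fibroblast genes, mostly Dcn, summed to 18.9 to 34.8 TPM in young, 24.7 to 80.0 in normal and 13.5 to 62.1 in abnormal samples. Markers of Schwann cells summed to 0.773 to 1.81 TPM in young, 1.42 to 6.32 in normal and 3.57 to 7.45 in abnormal samples, so young and abnormal samples did not overlap. Young replicate 2 stood apart by its smooth muscle markers (62.0 TPM, up to 6.12 in the other samples) and Fluo-4 normal replicate 2 by its red blood cell markers (321 TPM, up to 162 in the others). The part of these other cells in the results was not tested, and each result without either library is among those given with a sample left out.

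The second comparison set Fluo-4 abnormal fibers against young ones. Its abnormal samples are those of the first comparison, so the results are not independent.

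Capns1 stood at 45.3, 49.4, 42.1 and 38.4 TPM in young replicates 1 to 4, all below the abnormal range that began at 57.2. The log2 difference was 0.44 (SE 0.09, 95% interval 0.24 to 0.64), with an adjusted p of 0.0113 from limma. Cast stood at 36.8, 39.8, 41.0 and 33.8 TPM in young replicates 1 to 4, also all below the abnormal range. Its log2 difference was 0.42 (SE 0.11, 95% interval 0.18 to 0.66), with an adjusted p of 0.0348. These were 2 of 5 members called, both higher, where limma called 8.5% of all tested genes, 6.09% higher and 2.41% lower. They were also the 2 members whose groups did not overlap, as in 16.2% of all tested genes. Among genes of at least 5 TPM limma called 21.1%, and 2 of the 5 members. With TMM-type factors Cast overlapped, with up to 41.05 in young and from 40.96 in abnormal samples, whereas Capns1 did not, with up to 47.8 in young and from 50.7 in abnormal samples.

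Both calls depended on the scaling. With TMM-type factors Capns1 had a difference of 0.27 and an adjusted p of 0.104, and Cast a difference of 0.25 and an adjusted p of 0.127, from limma. Across the alternatives the adjusted p of Capns1 ran from 0.00638 to 0.104 and that of Cast from 0.0128 to 0.127. Cast also lost its call without any 1 of the 4 young samples or of Fluo-4 abnormal replicates 2, 3 and 4, with an adjusted p of 0.0544 to 0.114.

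The catalytic subunits did not pass the test against young fibers. Capn2 stood at 20.2, 17.97, 22.0 and 18.6 TPM in young replicates 1 to 4, and 3 of 4 abnormal samples were above that range. Its log2 difference was 0.33 (SE 0.13, 95% interval 0.06 to 0.61), with an adjusted p of 0.135 from limma. Capn1 stood at 8.87, 11.51, 10.6 and 11.4 TPM in young replicates 1 to 4, and 3 of 4 abnormal samples fell within that range, with replicate 2 above it. Its log2 difference was -0.03 (95% interval -0.32 to 0.27), with an adjusted p of 0.936, and its sign turned when some samples were left out. Capn3 stood at 44.4, 43.8, 39.3 and 36.5 TPM in young replicates 1 to 4, which overlapped the abnormal range of 33.98 to 39.0. Its log2 difference was -0.15 (SE 0.09, 95% interval -0.35 to 0.06), with an adjusted p of 0.401. With TMM-type factors Capn3 was called lower, with a difference of -0.32 and an adjusted p of 0.0239, whereas over all alternatives the adjusted p ran from 0.0239 to 0.633.

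**Figure D3:**
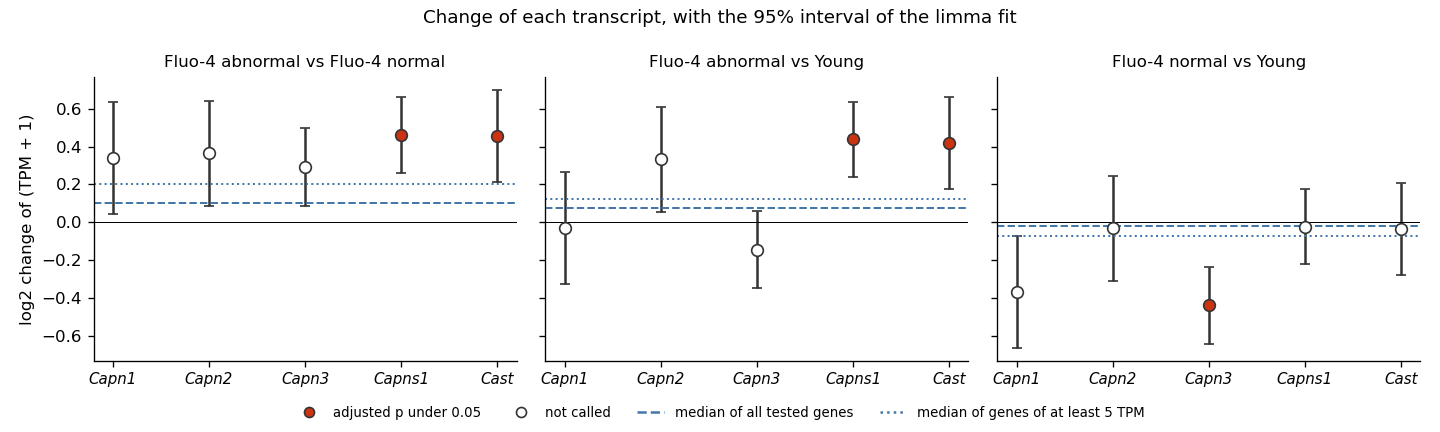
Log2 change of (TPM + 1) (y axis) of each gene (x axis) in the 3 comparisons, with the 95% interval of the limma fit. Filled points have an adjusted p under 0.05, and the dashed and dotted lines are the medians of all tested genes and of genes of at least 5 TPM. Capns1 and Cast are filled and positive in both comparisons of Fluo-4 abnormal fibers, and Capn3 is filled and negative (-0.44) between Fluo-4 normal and young fibers.

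The third comparison set Fluo-4 normal fibers of aged mice against young ones. The sources used here describe sorting by staining only for aged fibers, so these groups may differ in handling as well as in age. Here Capn3 was lower and no other member was called. The Fluo-4 normal samples of Capn3, from 25.97 to 34.1 TPM, all lay below the young ones, from 36.5 to 44.4 TPM. The log2 difference was -0.44 (SE 0.09, 95% interval -0.64 to -0.23), with an adjusted p of 0.0443 from limma. It was 1 of 5 members called, where limma called 1.15% of all tested genes, 0.561% higher and 0.589% lower. It was also the only member of the 5 whose groups did not overlap, as in 7.98% of all tested genes. Among genes of at least 5 TPM limma called 4.19%, and 1 of the 5 members.

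The call of Capn3 lay close to the threshold. It was kept with TMM-type factors (difference -0.39, adjusted p 0.0245, limma) and lost when values were scaled without mitochondrially-encoded genes (difference -0.41, adjusted p 0.0571). Leaving out 1 sample at a time lost it in 10 of 12 cases, that is without any sample other than Young replicate 4 or Fluo-4 normal replicate 3, with an adjusted p of 0.0567 to 0.156. The difference itself stayed between -0.50 and -0.37 over all alternatives.

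Capn1 had a log2 difference of -0.37 (SE 0.14, 95% interval -0.66 to -0.07), with an adjusted p of 0.252 from limma, and its groups met at the edge, since the highest normal sample at 9.19 TPM was above the lowest young one at 8.87. For Capns1, Cast and Capn2 the log2 differences were -0.02, -0.04 and -0.03, with 95% intervals of -0.22 to 0.17, -0.28 to 0.21 and -0.31 to 0.25. With TMM-type factors these 3 turned to 0.027, 0.015 and 0.017. Values that miss the threshold do not show equal levels.

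Ratios of transcripts within a sample do not depend on the scaling of the library, and are given without a test. The ratio of Cast to the sum of Capn1 and Capn2, inhibitor to conventional catalytic subunits, was 1.25 ± 0.09 (SD, n = 4) in young, 1.36 ± 0.12 in Fluo-4 normal and 1.44 ± 0.13 in Fluo-4 abnormal fibers. The ranges of the groups overlapped, from 1.13 to 1.35, from 1.19 to 1.44 and from 1.33 to 1.62. The ratio of Capns1 to the same sum was 1.45 ± 0.20, 1.59 ± 0.24 and 1.68 ± 0.17 in that order, and also overlapped. Inhibitor and regulatory subunit kept a similar proportion, with a ratio of Cast to Capns1 of 0.869 ± 0.079, 0.864 ± 0.117 and 0.860 ± 0.089.

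Among the catalytic subunits, the ratio of Capn2 to Capn1 was 1.89 ± 0.34 in young, 2.42 ± 0.23 in Fluo-4 normal and 2.46 ± 0.51 in Fluo-4 abnormal fibers, with overlapping ranges. That of Capn3 to Capn1 was 3.93 ± 0.76, 3.77 ± 0.31 and 3.59 ± 0.39. The ratio that set young fibers apart was that of Capn3 to Cast. It was 1.21, 1.10, 0.957 and 1.08 in young replicates 1 to 4, 0.838, 0.870, 0.802 and 0.742 in Fluo-4 normal ones and 0.780, 0.734, 0.686 and 0.698 in Fluo-4 abnormal ones. Every young sample was above every aged one, and the aged groups overlapped. This ratio and that of Cast to Capns1 were chosen after their values were seen.

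**Figure D4:**
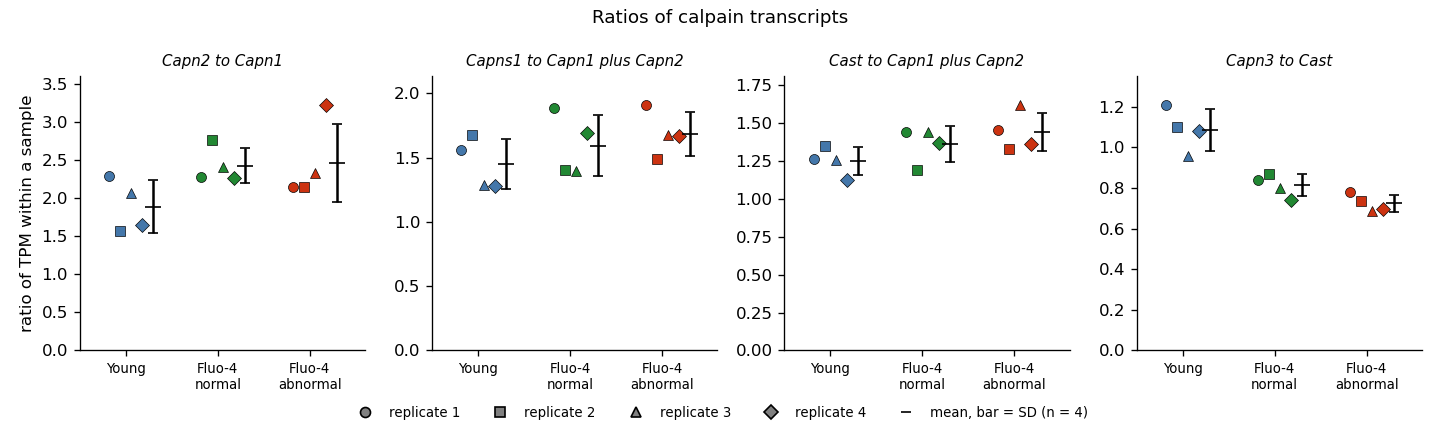
Ratio of TPM within a sample (y axis, from 0) in young, Fluo-4 normal and Fluo-4 abnormal fibers (x axis), with points for samples and bars for the mean and SD of 4. The ratio of Capn3 to Cast is 0.957 or more in the young samples and 0.870 or less in the aged ones, and the other 3 ratios overlap between groups.

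As shares of the summed TPM of the 5 genes, Capn3 took 26.8% ± 1.3 (SD, n = 4) in young, 21.9% ± 1.3 in Fluo-4 normal and 20.2% ± 0.7 in Fluo-4 abnormal fibers. Capns1 took 28.6% ± 1.5, 31.4% ± 2.8 and 32.6% ± 1.8, and Cast 24.8% ± 1.2, 26.9% ± 1.4 and 27.9% ± 1.5. The sum itself was 139 to 163 TPM in young, 119 to 152 in normal and 165 to 192 in abnormal samples. With TMM-type factors, tried after the values were seen, it was 153 to 164, 133 to 158 and 155 to 178, so that the groups overlapped.

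The genes whose levels ran most like those of each member over the 12 samples were ranked by Pearson's r of log2(TPM + 1) among 5994 genes of at least 5 TPM, as a description. All 12 samples share their groups and scaling. For Capns1 these were Hcfc1r1 (r = 0.958), Pbxip1 (0.957) and Srp72 (0.951), and for Cast Tsr1 (0.976), Usp14 (0.976) and Supt5 (0.975). For Capn3 they were Eef1a2 (r = 0.972), Homer1 (0.940) and Aven (0.933). For Capn2 they were Map1s (0.966), Golga5 (0.964) and Synrg (0.953), and for Capn1 Fiz1 (0.942), Tmem109 (0.912) and Kcnj11 (0.895).

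Of 11 further genes of the calpain family, Capn7, a calpain without the calcium-binding domain of the conventional ones, was the highest at 13.6 to 21.6 TPM, which overlapped the range of Capn2 and was above Capn1 in every sample. The other 10 were low. Capn10 had 1.02 to 2.45 TPM and Capn15 0.341 to 0.834, and Capn13 and Capns2, the second small subunit gene, were listed at 0 in all 12 samples. Of the 7 that passed the filter on low values, 0 were called by limma between abnormal and normal fibers, where Capn15 had an unadjusted p of 0.0443 and was 1 of 7 under 0.05, beside 3693 of all 14429 tested genes. Capn6, a calpain that lacks the active-site cysteine, was called lower in abnormal than in young fibers. It had 0.932, 0.742, 0.314 and 0.565 TPM in young replicates 1 to 4 and 0.061, 0.177, 0.209 and 0.117 TPM in abnormal ones, with a log2 difference of -0.51 (SE 0.14, adjusted p 0.0379). Values this low rest on few reads, the groups did not overlap, and the call was kept in 8 of 20 alternatives.

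Calpain targets and the proteins that hold calpains were followed as a list of 16 genes, all of which were tested. Between abnormal and normal fibers 7 of the 16 were called, all higher, where limma called 9.35% of all tested genes and 7.36% higher, and the list median was 0.50 beside 0.10 for all tested genes. Among genes of at least 5 TPM limma called 26.9%, with a median of 0.20. Of the 14 list genes among them it called 9, with a list median of 0.55. With TMM-type factors 3 of 16 were called, 13 had a positive difference and the list median was 0.28 beside 0. The number called was 4 with only the 2 groups compared and 4 without Fluo-4 abnormal replicate 2. Jph1 and Jph2 encode junctophilins, which tie the sarcoplasmic reticulum to the T-tubule membrane and are cut by calpains. Jph1 had 55.3, 69.1, 77.4 and 69.1 TPM in Fluo-4 normal replicates 1 to 4 and 93.1, 123, 114 and 103 TPM in abnormal ones. The groups did not overlap, and the log2 difference was 0.67 (SE 0.11, adjusted p 0.00334, limma), under 0.05 in 21 of 21 alternatives. Jph2 had 70.2, 74.2, 75.4 and 73.2 TPM in normal and 101, 123, 111 and 97.8 TPM in abnormal replicates 1 to 4. Its log2 difference was 0.55 (SE 0.10, adjusted p 0.00539), and it was called in 19 of 21 alternatives.

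The others called were Vcl, Dysf, Ahnak, Des and Ryr1, and each of these calls was lost under some alternatives. Vcl encodes vinculin of cell adhesions (0.64, adjusted p 0.00831), Dysf the membrane repair protein dysferlin (0.68, adjusted p 0.0125) and Ahnak a large scaffold protein (0.55, adjusted p 0.0144), with adjusted p from limma. Des encodes the intermediate filament desmin (0.38, adjusted p 0.0280) and Ryr1 the calcium release channel of the sarcoplasmic reticulum (0.72, adjusted p 0.0474). Vcl and Dysf were called in 19 of 21 alternatives each, Ahnak in 16, Des in 9 and Ryr1 in 5. With the replicate number as a block, which pairs abnormal with normal samples, Vcl had an adjusted p of 0.0519 and Ahnak of 0.0570 from limma, so both lost their calls. With TMM-type factors the adjusted p was 0.0518 for Dysf, 0.114 for Ahnak, 0.479 for Des and 0.138 for Ryr1, and Vcl kept its call. Against young fibers 5 of 16 were called higher in abnormal fibers, namely Dysf, Des, Jph1, Ahnak and Flnc, where limma called 8.5% of all tested genes and 6.09% higher, with a list median of 0.43 beside 0.07. Among genes of at least 5 TPM limma called 21.1%, and 5 of the 14 list genes among them. With TMM-type factors 2 of 16, Dysf and Flnc, were called and the list median was 0.26. Of these calls that of Dysf was kept in 21 of 21 alternatives, of Des in 19, of Ahnak in 13 and of Jph1 and Flnc in 11 each. The number called was 2 without Young replicate 4 or Fluo-4 abnormal replicate 4, and 3 without any 1 of the other young samples, of Fluo-4 abnormal replicates 2 and 3 or of Fluo-4 normal replicates 2 and 4. Between Fluo-4 normal and young fibers 1 of 16 was called, Jph2, which was lower at -0.57 (SE 0.10, adjusted p 0.0156, under 0.05 in 15 of 21 alternatives), where limma called 1.15% of all tested genes, and the list median was -0.03 beside -0.02. Among genes of at least 5 TPM limma called 4.19%, and 2 of the 14 list genes among them, both lower. In young fibers Jph2 ran from 93.6 to 130.02 TPM, above every Fluo-4 normal sample.

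**Figure D5:**
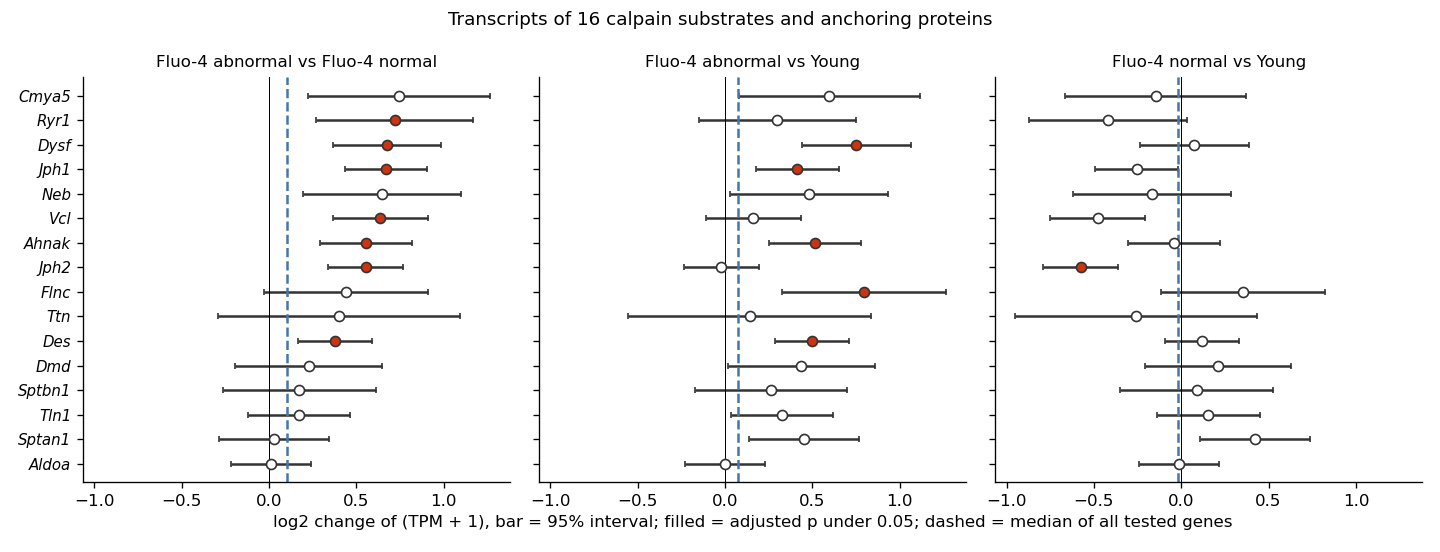
Log2 change of (TPM + 1) (x axis) of 16 genes for calpain targets and anchoring proteins (y axis, ordered by the first panel) in the 3 comparisons, with the 95% interval of the limma fit. Filled points have an adjusted p under 0.05, and the dashed line is the median of all tested genes. In the first panel, with TPM as deposited, all 16 points are above 0 and 7 are filled.

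Some of these values rest on loci that overlap other genes, which libraries without strand cannot separate. Capn3 shared 1981 exon bases with Zfp106 on the other strand, which had 61.1 to 142 TPM. It shared 2155 with a further gene model on its own strand, Gm52968, a name that the data did not list. Zfp106 had 95.9 to 118 TPM in young and 61.1 to 115 TPM in Fluo-4 normal samples, which overlapped, and its part in the level of Capn3 was not tested. Cast shared 835 exon bases with Erap1, at 2.50 to 5.25 TPM, and the overlapping partners of Capn1, Capn2 and Capns1 were at 0.404 TPM or less. None of the 5 members had a near-identical copy at another locus (0 with at least 95% identity over 50% of a transcript of 1000 bases or more).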

How the data were processed

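RNA from isolated EDL myofibers was sequenced in 12 samples, 4 each of young, Fluo-4 normal and Fluo-4 abnormal fibers, from SMART-Seq v4 libraries made of 10 ng of RNA. The TPM values deposited by the authors came from DRAGEN 4.3 on GRCm39 and sum to 1000000 in each sample. The annotation release is not given in the sources used here. Read depth is unknown, so no interval from counts was computed, and low values are the least precise. Each file held 55487 lines with 55367 distinct symbols, and 114 symbols on several lines were summed. Of the symbols, 49848 matched GENCODE vM39, 2527 a RefSeq symbol and 116 a RefSeq synonym, and 2876 were not matched.

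Protein-coding and mitochondrially-encoded genes with a mean of at least 0.02 TPM in 1 group (14429) were fitted as log2(TPM + 1) with limma 3.58.1 (trend on mean expression, R 4.3.3) over all 12 samples and 3 groups, with Benjamini-Hochberg adjustment. Changes on this scale are understated for low genes. Each result was recomputed with TPM divided by TMM-type factors (trimming 30% and 5%), with mitochondrially-encoded genes left out of the scaling, with no filter or one of 5 TPM, with a pseudocount of 0.1, only the 2 groups compared, the replicate number as a block, the Myh4 share as covariate or 1 sample left out, and, chosen after seeing the data, the block with TMM-type factors. Between abnormal and normal fibers the fits with the block held only these 2 groups, without the young samples.

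Labels give replicate numbers 1 to 4 in each group. Deviations from the group means correlated by 0.343 to 0.552 between abnormal and normal samples of the same number and by -0.465 to 0.296 between those of different numbers, so these groups were taken as paired by the data. The fit over all 12 samples leaves this pairing out, and only the alternatives with the replicate number as a block take it in. On data simulated for the comparison of abnormal and normal fibers, with 200 of 14429 genes changed, the fit recovered 91% of 2-fold and 100% of 4-fold changes, and 7.73% of its calls were false. The changes were planted only in genes of about 5 TPM or more, with noise that was not paired. No change under 2-fold was planted, so the recovery of differences as small as those of the members is not known. The members and gene lists were chosen with earlier results of these data known. The genes named are the 5 members and, of the 2 lists, up to 6 called genes each, by the smallest p between abnormal and normal fibers. Ryr1, Flnc, Capn7, Capn10, Capn13, Capn15 and Capns2 were named after their values were seen. BLAST 2.17.0 served to find copies of a gene, and Python 3.11.15 with numpy 2.4.6, pandas 2.3.3 and matplotlib 3.10.9 to summarise and plot.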

Additional observations from a re-analysis of the deposited data

Results flagged for a closer look

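Of 33 groups of 4 values (the 5 members and 6 ratios in 3 groups each), 4 had 1 sample far from the others by Dixon's test. Chance marks about 1 in 20 independent groups. The ratios reuse the values of the members, so the count cannot be weighed against that rate. In Fluo-4 normal fibers, Capn2 was 14.9 TPM in replicate 1 and 20.8 to 21.0 TPM in the other samples. In the same group Capns1 was 50.6 TPM in replicate 4 and 40.2 to 41.1 TPM in the others. The ratio of Capn3 to Capn1 was 3.32 in Fluo-4 normal replicate 4, below 3.89 to 3.96 in the others. The ratio of Capn2 to Capn1 was 3.21 in Fluo-4 abnormal replicate 4, above 2.15 to 2.33 in the others.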

How the results depend on the processing

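All values here are log2 differences or counts from limma. Between abnormal and normal fibers the 5 members stayed higher in 21 of 21 alternatives. With TMM-type factors, alone or with the replicate block, Capns1 (0.24) and Cast (0.23) lost their calls in this comparison and Capns1 (0.27) and Cast (0.25) did so against young fibers, where Capn3 was called lower instead (-0.32). Members called then numbered 0 between abnormal and normal and 1 between abnormal and young fibers, and all genes called between abnormal and normal fibers numbered 848, or 485 with the block, beside 1349 as reported. These factors also turned Capn2 (0.017), Capns1 (0.027) and Cast (0.015) positive between normal and young fibers. With no filter on low values Cast lost its calls (0.46 and 0.42) and Capn3 its call between normal and young fibers (-0.44), with 1, 1 and 0 members and 850, 750 and 71 genes called in the 3 comparisons, where 21435 genes were tested. With only the 2 groups compared Cast (0.46) and Capn3 (-0.44) lost their calls between abnormal and normal and between normal and young fibers, with 1 and 0 members and 566 and 69 genes called. With the Myh4 share as covariate Capns1 (0.39) and Cast (0.50) lost their calls between abnormal and normal fibers (0 members, 820 genes), Cast (0.44) against young fibers (1 member) and Capn3 (-0.49) between normal and young fibers (0 members). Under it Capn1 turned to 0.025 between abnormal and young fibers and Capns1 to 0.011 between normal and young fibers. Scaled without mitochondrially-encoded genes, Capn3 lost its call between normal and young fibers (-0.41, 0 members) and Capns1 turned to 0.0060. With the filter of 5 TPM Capn3 was called between abnormal and normal fibers (0.29), and 266 genes were called between normal and young fibers. For these losses the cause was not tested.

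With the replicate number as a block Capn2 was called between abnormal and normal fibers (0.37), 3 members in all, and no other member's call changed there. The numbers did not pair young samples (correlations of 0.0296 to 0.267 with abnormal and -0.134 to 0.267 with normal samples of the same number). With the block 320 genes were called between normal and young fibers, or 351 with TMM-type factors, beside 166 as reported, and 1651 between abnormal and young fibers beside 1227.

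Without 1 sample at a time, 606 to 1420 genes and 1 to 3 members were called between abnormal and normal fibers, the fewest genes without Fluo-4 abnormal replicate 2. Against young fibers 576 to 1677 genes and 1 to 2 members were called in abnormal fibers, the fewest without Young replicate 4, and 45 to 183 genes and 0 to 1 members in normal fibers, the fewest without Young replicate 2. Between abnormal and normal fibers the difference ran from 0.25 to 0.46 for Capn2, 0.23 to 0.35 for Capn3 and 0.38 to 0.53 for Cast. Against young fibers it ran from -0.12 to 0.038 for Capn1 and 0.37 to 0.49 for Cast in abnormal fibers, and from -0.073 to 0.083 for Capn2, -0.50 to -0.37 for Capn3, -0.10 to 0.035 for Capns1 and -0.10 to 0.046 for Cast in normal fibers. Without 1 sample the mean ratio of Capn3 to Cast ran from 1.04 to 1.13 in young fibers. It ran from 0.794 to 0.837 in Fluo-4 normal and from 0.706 to 0.737 in Fluo-4 abnormal fibers. That of Cast to the sum of Capn1 and Capn2 ran from 1.22 to 1.29, 1.33 to 1.42 and 1.38 to 1.48 in that order. Without read counts the precision of single values is unknown.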
